A study of Mus musculus with 12 samples.

Results

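The transcriptional response to induction of the reprogramming factors was described in fibroblasts that were grown with vitamin B12. It was read from the 6 of the 12 libraries of the series in which B12 was supplied, namely 3 libraries of uninduced cells (MEF+B12) and 3 of induced cells (OSKM+B12), and the libraries were chosen by their labels alone. The cells were i4F mouse embryonic fibroblasts (MEFs), C57BL/6 cells taken from E13.5 embryos. In them doxycycline switches on 4 transgenes called OSKM, which encode the transcription factors Oct4 and Sox2 together with Klf4 and Myc. All cells were moved to iPSC medium for 72 h, and the B12 groups received 2 µM vitamin B12 throughout. The induced cells additionally received doxycycline at 1 µg/ml throughout, and the uninduced cells received none (the dose is that of the labels, and the study's methods give it in mg/ml), so the drug and the factors cannot be told apart. The labels name clones 1, 2 and 3, each of which gave 1 library to every group, and these were the replicates. By the year in their titles, the libraries of clone 1 are a year later than those of the others. What the labels call a clone was not described further in them. The p-values of induction rest on how its effect varied between libraries once level differences between clones were removed.

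Oct4 and Sox2 are transcription factors of the pluripotent embryo, Klf4 also acts in the epidermis, and Myc drives growth genes. Expressed together in fibroblasts, they convert a small fraction of the cells into induced pluripotent stem cells over days to weeks. Early in this course fibroblast genes are lost and epithelial genes are gained, and the late pluripotency network is usually not yet active. Vitamin B12 is the cofactor of methionine synthase and of methylmalonyl-CoA mutase. The counts are of RNA from a whole dish, in which fewer cells of a type and less RNA per cell cannot be told apart.

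The 6 libraries held between 59164804 and 68902385 counted read pairs, so that 1 count corresponds to 0.0145 to 0.0172 CPM, the unit used below, which is the count scaled to a library total of 1000000 after TMM scaling. Log2 differences within a clone are of log2 CPM with a prior count of 2, which shrinks those of genes with few counts. In every library the cells carried fibroblast RNA, with 28378 to 37145 CPM of Col1a1, the main chain of type I collagen. They also carried macrophage RNA. The summed level of 16 macrophage markers, 15 of them tested, was 3482, 2834 and 2096 CPM in MEF+B12 and 2842, 2665 and 2194 CPM in OSKM+B12 for clones 1, 2 and 3, ranges that overlapped. One library outside the comparison, induced clone 1 without B12, stands apart in its pseudogene counts. It enters the fit through the filter, the scaling, the clone terms and the spread, which all 12 libraries share. Without it 24 of 19499 genes passed in place of 20 of 19174.

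The induced factors were examined first. Pou5f1, which encodes Oct4 (ENSMUSG00000024406, GRCm38 chr17:35506018-35510772), had 0.303, 0.207 and 0.0147 CPM in MEF+B12 and 20.7, 18.96 and 2.34 CPM in OSKM+B12 for clones 1, 2 and 3. All 3 induced libraries were above all 3 uninduced ones, and induced clone 3 held far less than the others. The log2 fold change was 6.28 ± 0.23 (± standard error) with an adjusted p of 3.78e-07 (edgeR, n = 3 a group), and the differences within clones were 5.95, 6.32 and 5.70. Sox2 (ENSMUSG00000074637, chr3:34650405-34652461) had 0.838, 0.396 and 0.397 CPM in MEF+B12 and 15.95, 17.8 and 2.18 CPM in OSKM+B12. The groups again did not overlap, and clone 3 again had the lowest induced value. Its log2 fold change was 4.26 ± 0.41 (adjusted p 0.00201). Myc (ENSMUSG00000022346, chr15:61985391-61990374) had 23.3, 18.7 and 20.2 CPM in MEF+B12 and 50.4, 43.6 and 21.9 CPM in OSKM+B12, so that only induced clones 1 and 2 were above the uninduced libraries. It did not pass over the 3 clones (0.82 ± 0.24, adjusted p 0.181). Klf4 (ENSMUSG00000003032, chr4:55527143-55532466) had 119.9, 121 and 118 CPM in MEF+B12 and 115, 119 and 108 CPM in OSKM+B12, and induction changed it by -0.07 ± 0.05 (adjusted p 0.5096). The counts do not separate a factor's transgene from its own gene.

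Over the 3 clones, 20 of the 19174 genes tested were higher in OSKM+B12 (0.104%) and 0 were lower, while 1287 were higher and 1567 lower at an unadjusted p under 0.05. With DESeq2 190 were higher (0.991%) and 226 lower (1.18%). The count also depended on the clones. Without clone 3, 473 of 19231 genes were higher (2.46%) and 531 were lower (2.76%), and all 20 were among them. Without clone 1 there were 2 genes, Pou5f1 and Lars2, and without clone 2 there was 1, Pou5f1. Clone 3 was left out with its weak response known, so the calls from clones 1 and 2 describe these clones and are no independent support for one another.

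Of the genes that rose in clones 1 and 2, 466 were also tested over the 3 clones. Their median log2 difference was 0.93 in clone 1, 1.00 in clone 2 and 0.08 in clone 3, and 329 (70.6%) also had a higher value in induced clone 3. The 531 that fell had medians of -0.50, -0.47 and -0.08, and 441 (83.1%) were also lower in clone 3. Among all genes with a positive fold change in the fit to clones 1 and 2, called or not, 56.6% were higher in clone 3, and of those with a negative one 55.6% were lower. The rises were also larger than the falls. A difference above 1 was seen for 219 of the rises in clone 1 and 237 in clone 2 but 30 in clone 3, and one below -1 for 56, 49 and 1 of the falls. A direct test of whether the response differed between clones, which used the libraries with and without B12, passed for 413 genes (2.15%).

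**Figure D1:**
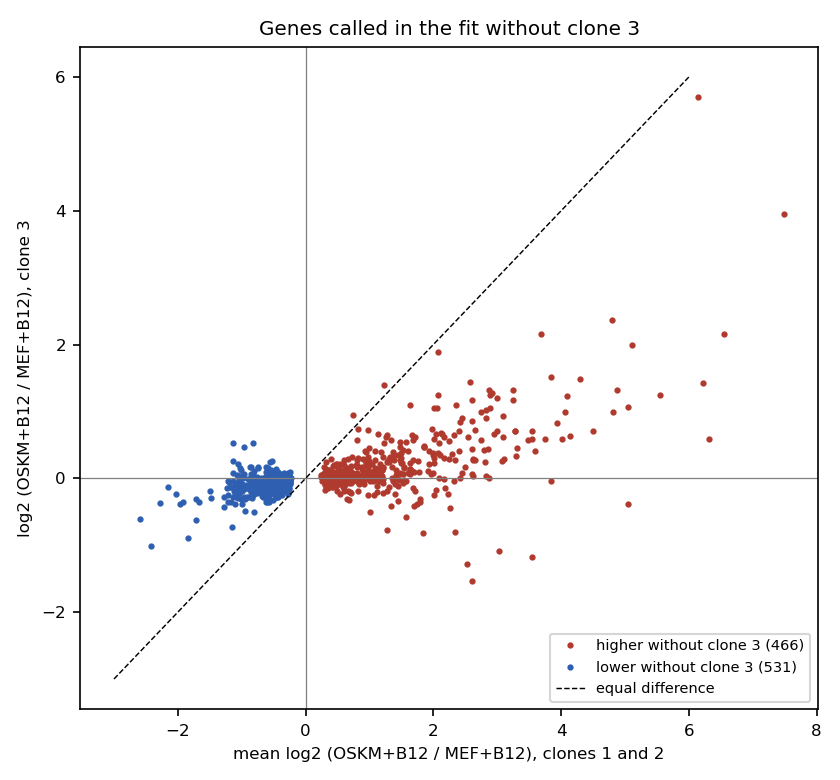
Each point is a gene that differed between OSKM+B12 and MEF+B12 without clone 3 and was also tested over the 3 clones, with its mean log2 difference in clones 1 and 2 on the x axis and that in clone 3 on the y axis. Most points lie near 0 on the y axis, far from the dashed line of equal difference, with medians in clone 3 of 0.08 for the 466 rises and -0.08 for the 531 falls.

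Of the 20 genes 8 are known from stratified epithelium, a grouping made after their values were seen. Slurp1, a secreted protein of the epidermis (chr15:74724318-74728034), had 0, 0 and 0 counts in MEF+B12 and 258, 501 and 29 in OSKM+B12. This was at least 263-fold higher, taking 3 counts over the group as the floor for an undetected gene, with an adjusted p of 0.000598. Nccrp1, a protein related to the F-box family (chr7:28543596-28547254), was likewise without a count in MEF+B12 and had 61, 53 and 3 counts in OSKM+B12, at least 38.99-fold higher (adjusted p 0.0233). For both genes clones 1 and 2 carried almost all of the counts, and clone 3 was above its uninduced library by a small number of reads.

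Pkp1, a plakophilin of desmosomes (chr1:135871395-135919207), had 1, 0 and 0 counts in MEF+B12 and 143, 259 and 1 in OSKM+B12, a ratio of 403 with a 95% counting interval of 71.9 to 15953 (exact binomial, counting error only). Its induced clone 3 held a single count, so this rise rests on clones 1 and 2 (adjusted p 0.0001696). Krt13, a keratin of mucosal epithelium (chr11:100117327-100121566), had 0, 1 and 0 counts in MEF+B12 and 97, 73 and 6 in OSKM+B12 (ratio 176, interval 31.2 to 6989, adjusted p 0.00636). Krtdap, a keratinocyte differentiation protein (chr7:30787896-30791097), had 1, 2 and 0 counts in MEF+B12 and 48, 39 and 7 in OSKM+B12 (ratio 31.3, interval 10.4 to 155, adjusted p 0.0201). In both, every induced library was above every uninduced one. Krt16, a keratin of activated keratinocytes, had 0, 2 and 0 counts in MEF+B12 and 59, 37 and 2 in OSKM+B12 (adjusted p 0.0155), but 51.9% of its 31-base words occur in other genes on the same strand, so its counts are uncertain. Mal, a lipid raft protein of epithelial cells, had 3, 2 and 3 counts in MEF+B12 and 89, 114 and 6 in OSKM+B12 (4.52 ± 0.63, adjusted p 0.0268). Aldh3a1, an aldehyde dehydrogenase abundant in the cornea, had 0.752, 0.396 and 0.265 CPM in MEF+B12 and 7.13, 13.54 and 0.661 CPM in OSKM+B12, so that induced clone 3 lay below uninduced clone 1 (3.63 ± 0.56, adjusted p 0.0428).

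L1td1, an RNA-binding protein of pluripotent cells that derives from a transposon (chr4:98726734-98738480), had 0, 0 and 0 counts in MEF+B12 and 149, 230 and 7 in OSKM+B12, at least 129-fold higher with an adjusted p of 0.000598. Hbb-y, the embryonic beta-like globin (chr7:103851749-103853216), had 0, 0 and 0 counts in MEF+B12 and 40, 73 and 2 in OSKM+B12, at least 38.3-fold higher with an adjusted p of 0.0428, but 0.217 with DESeq2. Both were detected in induced cells alone, with single-digit counts in clone 3. Cfap206, a protein of motile cilia, had 0, 0 and 1 counts in MEF+B12 and 109, 201 and 6 in OSKM+B12 (ratio 316, interval 56.3 to 12518, adjusted p 0.00731). Mst1, which encodes the secreted ligand of a receptor tyrosine kinase, had 3, 3 and 0 counts in MEF+B12 and 27, 46 and 3 in OSKM+B12 (3.54 ± 0.51, adjusted p 0.0299). Its induced clone 3 was level with uninduced clones 1 and 2.

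Cd5l, a secreted protein made by macrophages (chr3:87357881-87371073), had 1.88, 8.87 and 2.59 CPM in MEF+B12 and 13.7, 43.5 and 7.098 CPM in OSKM+B12. It was higher in each induced library than in the uninduced library of the same clone, by 2.85, 2.29 and 1.44, although the groups overlapped because clone 2 was high in both states. The log2 fold change was 2.19 ± 0.27 (adjusted p 0.0155). It was the single rise among the macrophage markers, of which 11 of 15 had a negative difference, with a median of -0.21. Adgre1, which encodes F4/80, had 188, 133 and 104 CPM in MEF+B12 and 128, 111 and 104 CPM in OSKM+B12, and the part of macrophage RNA in the rise of Cd5l was not tested. Grm4, a glutamate receptor, rose on few counts (1, 0 and 0 counts in MEF+B12 and 23, 41 and 1 in OSKM+B12), and DESeq2 gave it no adjusted p. Tmem184a, a transmembrane protein, had 8, 2 and 2 counts in MEF+B12 and 53, 45 and 7 in OSKM+B12 (3.02 ± 0.46, adjusted p 0.0428). The unnamed transcript A730046J19Rik had 4, 6 and 5 counts in MEF+B12 and 134, 142 and 17 in OSKM+B12 (4.14 ± 0.56, adjusted p 0.0201), and Mir6236 and Gm24187 complete the 20.

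**Figure D2:**
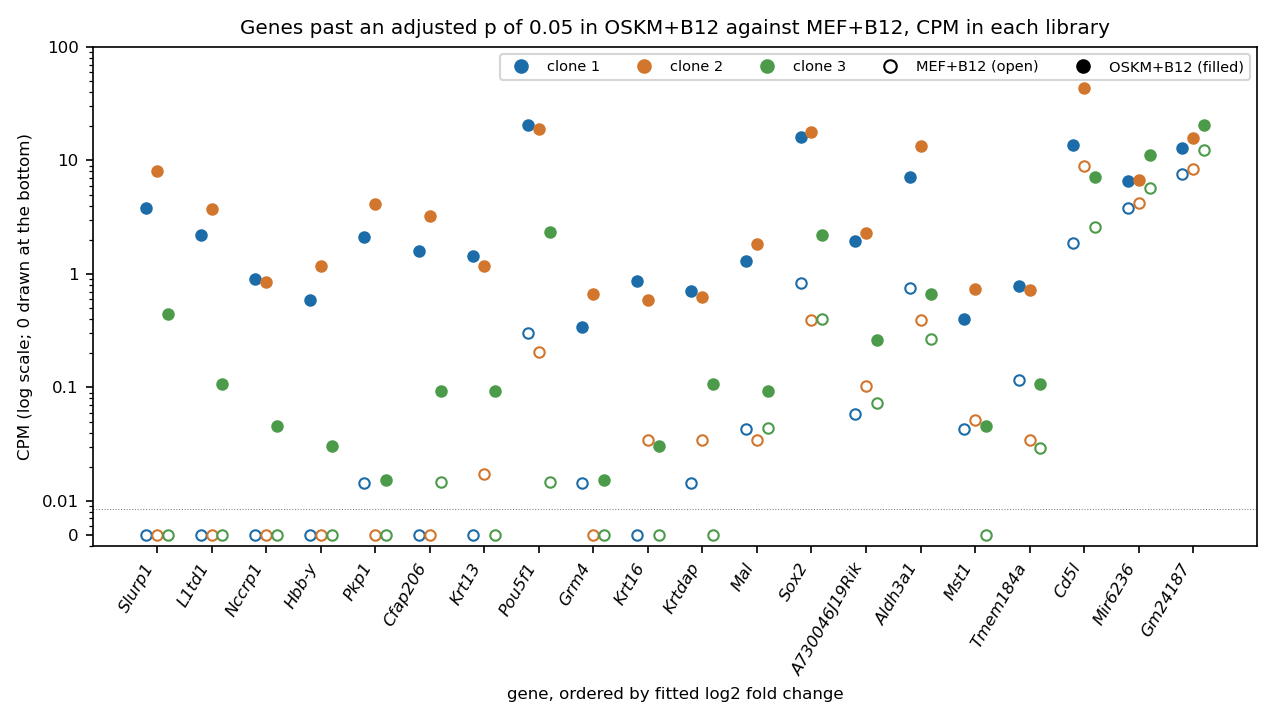
CPM on a log axis of the 20 genes that were higher in OSKM+B12, ordered by fitted log2 fold change, with open points for MEF+B12 and filled points for OSKM+B12 and 1 colour a clone (values of 0 drawn at the bottom). Filled points of clones 1 and 2 stand well above those of clone 3 for most genes, as for Pou5f1 with 20.7 and 18.96 against 2.34 CPM, whereas Mir6236 and Gm24187 have filled points close together.

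The keratin list showed the same order of clones. Of 24 keratins and squamous genes 13 were tested, and all 13 had a positive difference, with a median log2 fold change of 1.15 against 0.00 over all genes. Of these 2 passed over the 3 clones (Krt13 and Krt16) and 7 without clone 3 (against 2.46% of all genes), while 4 passed with DESeq2 (against 0.991%). The median was 1.25, 1.43 and 0.08 in clones 1, 2 and 3. Krt14, the basal keratin of epidermis, had 0.708, 0.396 and 0.279 CPM in MEF+B12 and 8.68, 4.49 and 0.4301 CPM in OSKM+B12 (3.03 ± 0.51, adjusted p 0.0716). Krt8, a keratin of simple epithelium, had 0.434, 0.276 and 0.162 CPM in MEF+B12 and 3.48, 2.83 and 0.1997 CPM in OSKM+B12. In both, induced clone 3 lay within the range of the uninduced libraries, and the log2 fold changes without clone 3 were 3.56 ± 0.20 and 3.13 ± 0.28 (adjusted p 0.0001301 and 0.00129). Trp63, the transcription factor p63 of basal epithelium, had 1.47, 0.947 and 0.647 CPM in MEF+B12 and 3.54, 2.61 and 0.983 CPM in OSKM+B12 (1.15 ± 0.18, adjusted p 0.05501). Krt19 and Krt20 also rose without clone 3, 2.76-fold and 5.59-fold. Shared sequence affects 28.2% of the words of Krt14 and 32.3% of those of Krt8.

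Of 38 genes of epithelial adhesion and junctions 22 were tested. Over the 3 clones 1 passed, Pkp1, and without clone 3 there were 8 rises and 1 fall (against 2.46% and 2.76% of all genes), with a median of 0.28 over the 3 clones. Cdh1, E-cadherin, the defining adhesion molecule of epithelium, stayed low, with 0.188, 0.0344 and 0.0441 CPM in MEF+B12 and 0.588, 0.611 and 0.0922 CPM in OSKM+B12. It rose without clone 3 (2.39 ± 0.53, adjusted p 0.0429) but not over the 3 clones (adjusted p 0.176), and Epcam was too low to be tested. Dsc2 and Dsp, of desmosomes, rose 7.17-fold and 3.14-fold without clone 3, Cldn1, of tight junctions, 2.59-fold, and Elf3, an epithelial transcription factor with at most 0.322 CPM, passed as well. Perp, a desmosomal target of p53, had 1.76, 3.81 and 6.605 CPM in MEF+B12 and 6.29, 8.298 and 6.48 CPM in OSKM+B12. Its uninduced clone 3 was level with the induced libraries. Pkp2 fell 1.67-fold. Itgb4, the integrin subunit of hemidesmosomes (chr11:115974709-116008412), is named by the size of its rise and had 1.65, 1.55 and 2.46 CPM in MEF+B12 and 18.9, 20.3 and 3.26 CPM in OSKM+B12. Induced clones 1 and 2 were far above the rest, with 3.60 ± 0.12 without clone 3 (adjusted p 8.25e-06) and 2.61 ± 0.60 with it (adjusted p 0.176).

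Many genes that mark adventitial fibroblasts, the fibroblasts around vessels and in fascia, rose in clones 1 and 2. All 20 were tested, and 18 had a positive difference. Of these 20 genes 12 rose without clone 3 (against 2.46% of all genes), while 0 passed over the 3 clones. At an unadjusted p under 0.05 there were 14 (against 2854 of all 19174 genes), and 7 were higher with DESeq2 (against 0.991%). The median was 0.91 in clone 1, 0.60 in clone 2 and 0.06 in clone 3. Pi16, a peptidase inhibitor that defines these cells (chr17:29317680-29330593), had 9.15, 15.8 and 15.3 CPM in MEF+B12 and 132, 151 and 24.9 CPM in OSKM+B12. Myoc, the extracellular glycoprotein myocilin (chr1:162639155-162649693), had 0.303, 1.52 and 3.91 CPM in MEF+B12 and 8.32, 68.3 and 8.204 CPM in OSKM+B12. The groups did not overlap for either gene, and induced clone 3 was the closest to its own uninduced library. Without clone 3 they changed by 3.54 ± 0.17 and 5.28 ± 0.17 (adjusted p 7.21e-05 and 8.25e-06), and over the 3 clones by 2.65 ± 0.65 and 3.46 ± 0.89 (adjusted p 0.176 for each). Their response differed between clones (adjusted p 2.72e-06 for each). Cd34, a sialomucin, had 260.1, 266 and 238 CPM in MEF+B12 and 491, 523 and 276 CPM in OSKM+B12, and Igfbp6, which binds IGF2, had 119, 119 and 99.4 CPM in MEF+B12 and 255, 245 and 106 CPM in OSKM+B12. Without clone 3 these abundant markers rose 1.92-fold and 2.102-fold, while in clone 3 the log2 differences were 0.21 and 0.10. Wnt2, a Wnt ligand, rose 2.403-fold, Has1, a hyaluronan synthase, 3.01-fold, Efhd1 7.78-fold and Bmp7, a BMP ligand, 3.26-fold without clone 3.

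All 10 mesothelial markers, genes of the lining of body cavities, had a positive difference (median 0.63), and 3 rose without clone 3 (against 2.46% of all genes). Msln, mesothelin (chr17:25748613-25754378), had 4.23, 5.29 and 6.62 CPM in MEF+B12 and 26.3, 22.1 and 8.05 CPM in OSKM+B12. Anxa8, an annexin, had 16.7, 17.7 and 22.3 CPM in MEF+B12 and 53.6, 53.4 and 24.5 CPM in OSKM+B12. Induced clone 3 was above all uninduced libraries for both genes, by a small margin. Upk3b, a uroplakin, rose 2.48-fold without clone 3. The summed level of the 10 markers was 49.7, 54.5 and 65.9 CPM in MEF+B12 and 137, 128 and 71.7 CPM in OSKM+B12. Of 17 endothelial markers 9 were tested, and 3 rose and 1 fell without clone 3 (against 2.46% and 2.76% of all genes). Tek, the angiopoietin receptor TIE2, had 37.7, 37.7 and 34.3 CPM in MEF+B12 and 133, 124 and 41.2 CPM in OSKM+B12, and Cdh5, VE-cadherin, had 1.13, 0.741 and 1.397 CPM in MEF+B12 and 2.88, 2.798 and 1.47 CPM in OSKM+B12, whereas Flt1, a VEGF receptor, fell 1.51-fold. Pecam1, a defining marker of endothelium, was at most 0.279 CPM and below the filter over the 3 clones. The part of cells of these types in the rises was not tested.

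Beside Sox2, Cd5l, Pi16, Myoc, Itgb4 and Msln, the 15 largest rises without clone 3 among genes with a mean log2 CPM of at least 1 were Aox3, Plekha6, Col2a1, Sema5b, Ceacam1, Aldh1a3, Stmn2, Fgd5 and Mmp28. Aox3, an aldehyde oxidase, had 2.12, 1.998 and 1.43 CPM in MEF+B12 and 11.97, 13.8 and 1.75 CPM in OSKM+B12. Aldh1a3, which makes retinoic acid, had 3.27, 2.51 and 3.07 CPM in MEF+B12 and 14.6, 9.12 and 3.99 CPM in OSKM+B12. Col2a1, the collagen of cartilage, had 5.28, 2.34 and 1.93 CPM in MEF+B12 and 14.6, 21.5 and 3.04 CPM in OSKM+B12. Induced clones 1 and 2 were above all other libraries in each of these 3 genes. Their folds without clone 3 were 6.2003, 4.04 and 4.65. The folds of the other 6 ran from 3.68 for Mmp28, a metalloproteinase of epidermis, to 4.67 for Plekha6. Fgd5, an exchange factor of endothelial cells, had 2.86, 3.25 and 3.87 CPM in MEF+B12 and 10.97, 13.2 and 4.06 CPM in OSKM+B12, and its values in clone 3 differed by 0.07 on the log2 scale. Of the 15 genes Sox2 and Cd5l passed over the 3 clones, and the others had adjusted p-values from 0.1304 to 0.183. Ceacam1 shares 37.5% of its words with other genes and is uncertain.

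**Figure D3:**
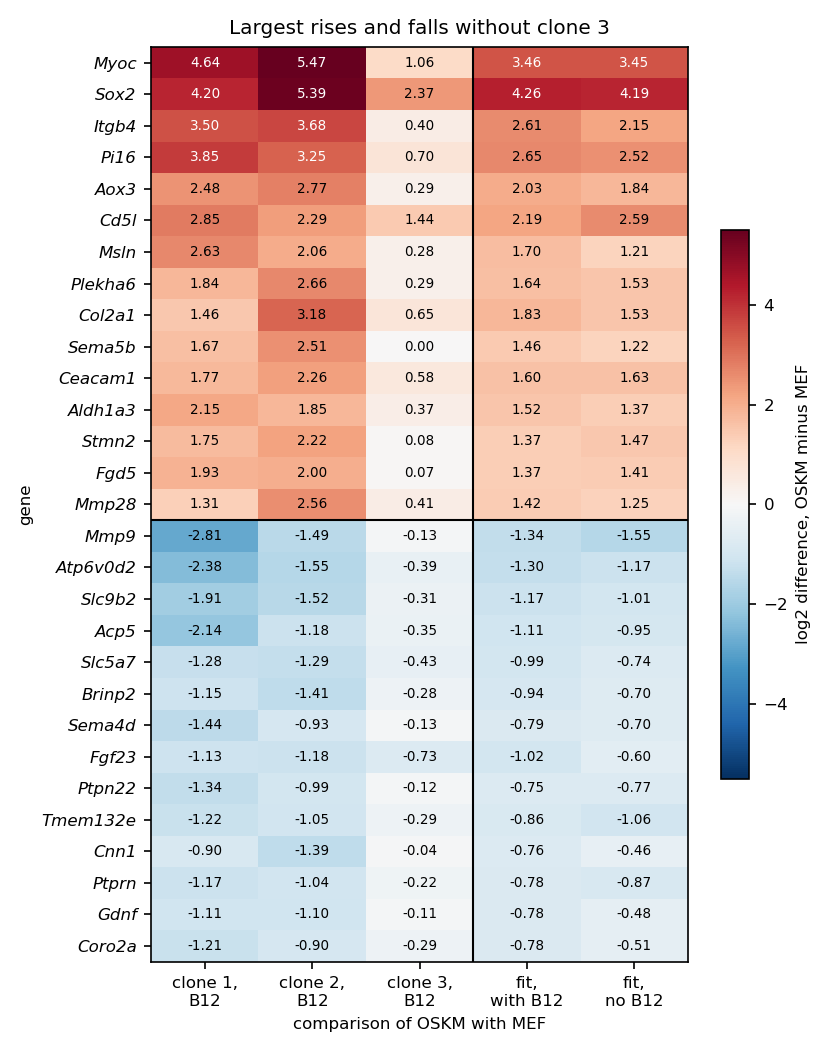
Log2 differences between induced and uninduced cells for the 15 largest rises and 14 of the 15 largest falls without clone 3, with columns for the difference in each clone with B12, the fit over 3 clones with B12 and the fit without B12. Clones 1 and 2 are strongly coloured and clone 3 is pale, as for Myoc with 4.64, 5.47 and 1.06, and for Mmp9 with -2.81, -1.49 and -0.13.

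The falls were smaller than the rises. Of 26 contractile and myofibroblast genes 24 had a negative difference (median -0.24), and 0 passed over the 3 clones with edgeR. At an unadjusted p under 0.05 there were 13, against 2854 of all 19174 genes tested. With DESeq2 9 were lower (against 1.18% of all genes), and 7 fell without clone 3 (against 2.76%). Acta2, smooth muscle actin (chr19:34241090-34255590), had 396, 274 and 299 CPM in MEF+B12 and 282, 183 and 275 CPM in OSKM+B12. Tagln, the actin-binding protein transgelin (chr9:45929619-45936058), had 228, 219 and 227 CPM in MEF+B12 and 182, 139 and 208 CPM in OSKM+B12. In each clone the induced library was the lower, and the groups overlapped for Acta2 while they did not for Tagln. Their log2 fold changes without clone 3 were -0.54 ± 0.11 and -0.50 ± 0.08 (adjusted p 0.0309 and 0.0136). Cnn1, calponin (chr9:22099216-22109630), fell 2.19-fold, Lmod1, an actin nucleator, 1.74-fold, Mylk, myosin light chain kinase, 1.46-fold, Actn1, an actin crosslinker, 1.29-fold and Cnn2 1.22-fold.

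Of 25 metalloproteinases and inhibitors tested 22 had a negative difference (median -0.21), and 0 passed over the 3 clones with edgeR. At an unadjusted p under 0.05 there were 15, against 2854 of all 19174 genes tested. With DESeq2 1 was lower (against 1.18% of all genes), and 8 fell without clone 3 (against 2.76%). Mmp28, one of the largest rises without clone 3, was not in this list. Mmp9, a gelatinase (chr2:164940780-164955850), was the largest fall, with 109, 158 and 133 CPM in MEF+B12 and 15.6, 56.1 and 122 CPM in OSKM+B12. Mmp3, stromelysin 1 (chr9:7445822-7455975), had 411, 816 and 463 CPM in MEF+B12 and 202, 417 and 437 CPM in OSKM+B12. Induced clone 1 was the lowest library for both genes, and induced clone 3 lay within the uninduced range, as did induced clone 2 for Mmp3. Without clone 3 they fell 4.21-fold and 2.002-fold (adjusted p 0.00741 and 0.000206), and over the 3 clones the log2 fold changes were -1.34 ± 0.47 and -0.70 ± 0.20 (adjusted p 0.224 and 0.1799). Mmp14 and Mmp2, a membrane protease and its substrate, fell 1.198-fold and 1.22-fold, and Mmp10 and Mmp19 1.88-fold and 1.39-fold.

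Among 45 matrix glycoproteins and elastic fibre genes 7 fell and 2 rose without clone 3 (against 2.76% and 2.46% of all genes), around a median of -0.09 over the 3 clones. Ltbp2, a latent TGF-beta binding protein, had 418, 500.1 and 553 CPM in MEF+B12 and 219.6, 311 and 469 CPM in OSKM+B12. Tnc, tenascin C, had 318, 361 and 393 CPM in MEF+B12 and 195, 231 and 326 CPM in OSKM+B12. Both were lower in the induced library of every clone, by -0.93, -0.68 and -0.24 and by -0.71, -0.65 and -0.27, and passed with DESeq2 (adjusted p 0.00359 for each) but not with edgeR (0.176 for each). Postn, periostin, one of the most abundant matrix genes here, fell 1.25-fold, Fmod, fibromodulin, 1.53-fold, and Cilp, a cartilage protein, rose 2.45-fold without clone 3. Of 32 collagen chains 28 had a negative difference (median -0.15), but 2 passed without clone 3, Col23a1 (1.57-fold lower) and Col9a2 (2.09-fold lower). Col2a1, one of the largest rises without clone 3, was not in this list. Col1a1 had 37145, 34064 and 36565 CPM in MEF+B12 and 28378, 29942 and 32457 CPM in OSKM+B12, lower in every clone and without passing (-0.25 ± 0.11, adjusted p 0.327). Of 16 fibroblast markers 3 fell without clone 3, Postn, Pdgfrb (1.25-fold) and Cdh2 (1.27-fold), with a median of -0.03.

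The 15 largest falls also included, beside Mmp9, Cnn1 and Atp6v0d2, the genes Slc9b2, Acp5, Slc5a7, Brinp2, Sema4d, Fgf23, Ptpn22, Tmem132e, Ptprn, Gdnf and Coro2a. Acp5, tartrate-resistant acid phosphatase, had 27.3, 50.5 and 52.6 CPM in MEF+B12 and 6.16, 22.3 and 41.3 CPM in OSKM+B12. Fgf23, the phosphate-regulating FGF, had 2.703, 6.08 and 4.62 CPM in MEF+B12 and 1.22, 2.67 and 2.77 CPM in OSKM+B12, and Gdnf, a neurotrophic factor, had 3.08, 3.81 and 2.604 CPM in MEF+B12 and 1.41, 1.75 and 2.41 CPM in OSKM+B12. The 15 falls were chosen for the same sign in all 3 clones, so agreement in sign is given by the choice. The differences of Fgf23 were -1.13, -1.18 and -0.73 in clones 1, 2 and 3. Adjusted p-values over the 3 clones ran from 0.115 for Fgf23 to 0.242 for Ptpn22, and folds without clone 3 from 2.09 for Coro2a to 4.21 for Mmp9.

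Signalling lists held calls in both directions, against 2.76% of all genes lower and 2.46% higher without clone 3. Of 32 TGF-beta ligands, receptors and targets 4 fell and 2 rose without clone 3 (median -0.05 over the 3 clones). Inhbb, an activin subunit, had 72.7, 69.5 and 55.3 CPM in MEF+B12 and 42.9, 42.1 and 47.9 CPM in OSKM+B12, and Tgfb1 had 75.7, 88.2 and 77.8 CPM in MEF+B12 and 57.02, 67.03 and 72.6 CPM in OSKM+B12. The groups did not overlap for either gene, and they fell 1.68-fold and 1.32-fold without clone 3, where Inhba, another activin subunit, also fell, 1.35-fold. Id1, a target of BMP signalling, and Bmp6, a ligand, rose 2.83-fold and 2.16-fold. Of 27 Wnt ligands and antagonists 2 rose, Wnt2 and the antagonist Sostdc1 (4.71-fold), and 3 fell, the antagonists Sfrp1 (1.45-fold) and Dkk3 (1.43-fold) and the enhancer Rspo3 (1.32-fold). Of 17 IGF genes Igfbp6 rose and Igfbp2 and Igfbp4 fell, 1.397-fold and 1.27-fold.

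Transcription factors of the mesenchyme were called in both directions, against 2.46% of all genes higher and 2.76% lower without clone 3. Of 30, Meox2 (1.84-fold) and Osr2 (1.29-fold) rose and Runx1 fell (1.29-fold) without clone 3. Snai1 and Zeb1, repressors of E-cadherin, had 43.01, 39.1 and 42.2 CPM in MEF+B12 and 38.1, 35.4 and 39.5 CPM in OSKM+B12 for Snai1 and 103, 88.7 and 107 CPM in MEF+B12 and 94.5, 88.3 and 104 CPM in OSKM+B12 for Zeb1, with adjusted p-values of 0.225 and 0.643. Of 16 Krüppel-like factors 3 rose and 2 fell without clone 3 (against 2.46% and 2.76% of all genes). The 2 were Klf2 (1.49-fold) and Klf5 (1.35-fold), which also belong to the pluripotency network. Of 34 pluripotency genes 16 were below the filter, and of the 18 tested L1td1 alone passed over the 3 clones. Nanog had 0.303, 0.241 and 0.294 CPM in MEF+B12 and 0.353, 0.386 and 0.2304 CPM in OSKM+B12, values that overlapped (adjusted p 0.822), and Esrrb had at most 0.0517 CPM.

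Genes of growth and metabolism held few calls, against 2.46% of all genes higher and 2.76% lower without clone 3. Of 40 ribosome biogenesis genes 36 had a positive difference, but the median was 0.07. Of these 40 genes 0 passed with edgeR, without clone 3 or with DESeq2. At an unadjusted p under 0.05 there were 5, against 2854 of all 19174 genes. Of 44 replication genes 34 had a positive difference (median 0.06), and 0 passed in the same 3 ways, with 9 at an unadjusted p under 0.05. Of 40 mitosis genes 1 rose without clone 3, Cdc25b (1.33-fold). Mki67, a proliferation marker, had 123, 78.3 and 107 CPM in MEF+B12 and 139, 107 and 96.6 CPM in OSKM+B12, which overlapped. Of 28 cell cycle inhibitors and p53 targets Cdkn1c and Perp rose without clone 3, while Cdkn1a, p21, had 160.2, 143 and 147 CPM in MEF+B12 and 150.5, 133 and 143 CPM in OSKM+B12. In the methionine and folate cycle 29 genes were tested, and Cth, which makes cysteine from cystathionine, rose 2.25-fold and Aldh1l1 and Aldh1l2, of folate metabolism, fell 1.298-fold and 1.31-fold without clone 3. Of 16 genes of B12 uptake and trafficking and 15 H3K36 methyltransferases and demethylases, 0 passed with edgeR over 3 clones (1 of each at an unadjusted p under 0.05), without clone 3 or with DESeq2. Mtr, methionine synthase, changed by -0.03 ± 0.08, Cd320, the receptor for B12 uptake, by 0.01 ± 0.09, and Setd2, an enzyme that methylates H3K36, by 0.05 ± 0.08.

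The calls of the remaining lists without clone 3 stand against 2.46% of all genes higher and 2.76% lower. Of 27 interferon-stimulated genes 2 fell, Ifit3 and Gbp2 (1.31-fold), with a median of -0.15, and 61.8% of the words of Ifit3 are shared with other genes. Of 34 Hox genes 1 fell, Hoxb9 (1.33-fold). Of 22 AP-1 and immediate early genes 1 rose and 1 fell, of 12 Myc family genes Myc and Mxi1 rose, and of 31 glycolysis and hypoxia-responsive genes 1 rose, Vegfa (1.44-fold). Of the other markers, 1 of 5 skeletal muscle genes fell (Ttn), 1 of 4 adipocyte genes fell (Lpl), 1 of 13 neural genes rose and 1 fell, and 1 of 8 chondrocyte and bone genes rose and 1 fell. The plot of list medians sets the lists side by side.

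**Figure D4:**
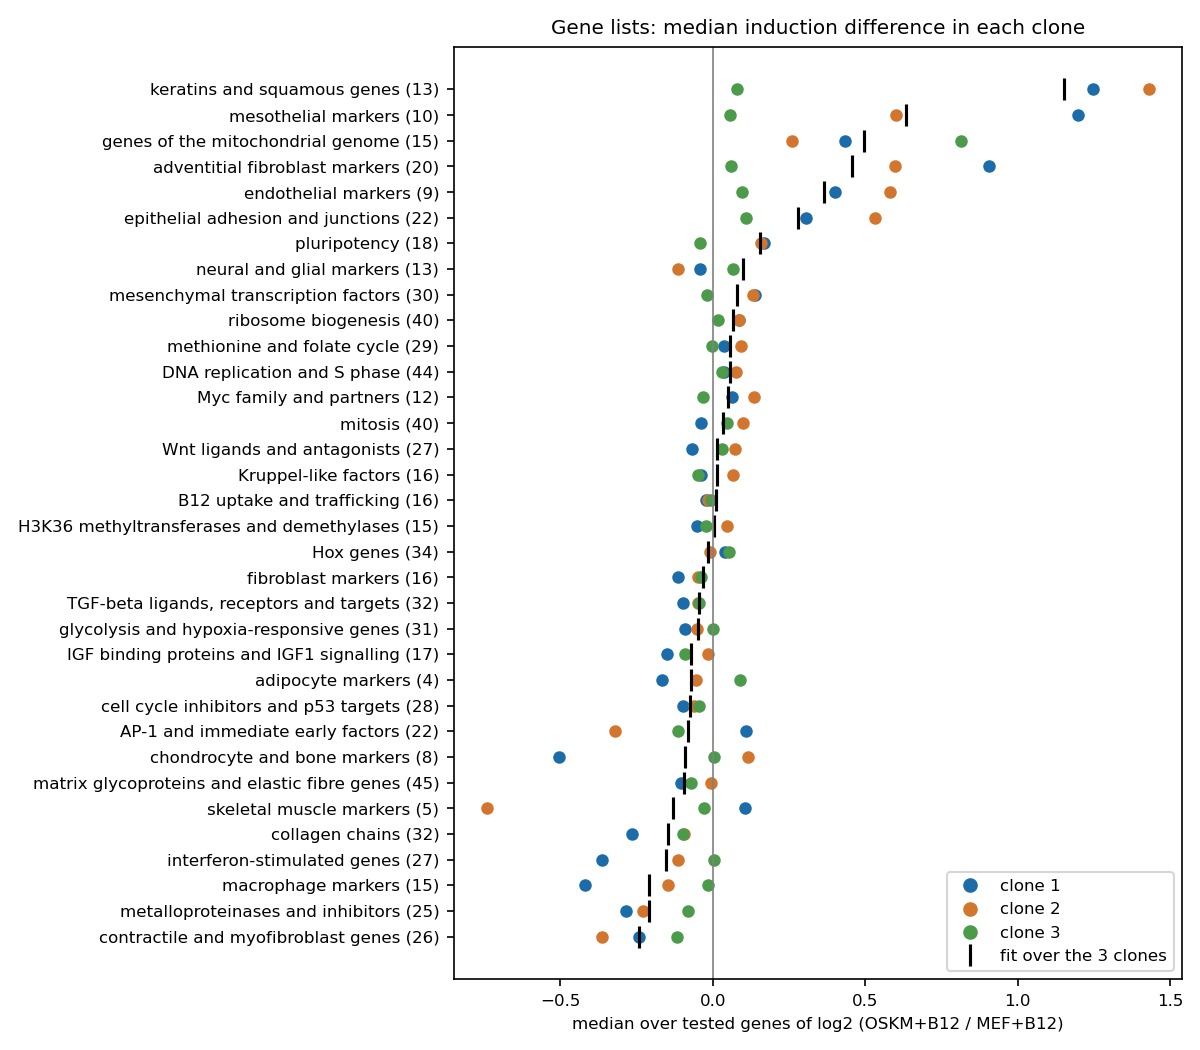
Median log2 difference between OSKM+B12 and MEF+B12 over the tested genes of each list (number in brackets), with a coloured point for each clone, a black tick for the fit over the 3 clones and a grey line at the median of all genes. The reprogramming factors and the lists put together after values were seen are not drawn. Of the lists drawn, the keratin list has the highest fitted median at 1.15 and the contractile list the lowest at -0.24, and clone 3 is furthest from the grey line for the genes of the mitochondrial genome, at 0.81.

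A further pattern was, in the B12 libraries, as large in clone 3 as in the others. Over 6 loci picked for it after values were seen, the median log2 fold change was 0.75 with B12 and -0.04 without. The Mir6236 locus (ENSMUSG00000098973, chr9:110281287-110281409, plus strand), from which the microRNA miR-6236 is annotated, had 3.801, 4.202 and 5.74 CPM in MEF+B12 and 6.602, 6.77 and 11.1 CPM in OSKM+B12. The groups did not overlap, and the differences within clones were 0.79, 0.68 and 0.95, giving 0.82 ± 0.10 with an adjusted p of 0.0155. The locus Gm24187 (chr13:9834469-9834525) had 7.67, 8.44 and 12.4 CPM in MEF+B12 and 12.9, 15.7 and 20.6 CPM in OSKM+B12, with differences of 0.74, 0.89 and 0.73 (0.79 ± 0.11, adjusted p 0.0201), and 59.3% of its words occur in other genes. With a correction for GC content and length the adjusted p rose to 0.0724 for Mir6236 and 0.149 for Gm24187. The libraries were made from poly(A) RNA and the counts lie on the whole locus, so they do not measure the mature microRNA, whose sequence in RefSeq (GRCm38.p6, chr9:110281353-110281371) is shown to identify the locus, with the seed (bases 2 to 8) in capitals.
mmu-miR-6236: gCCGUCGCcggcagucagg

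Transcripts of the mitochondrial genome also tended to be higher in induced cells, with a median difference that was less even between clones and largest in clone 3. Of its 13 mRNA and 2 rRNA genes 13 had a positive difference, with a median of 0.50 over the 3 clones and 0.43, 0.26 and 0.81 in clones 1, 2 and 3. With edgeR 0 passed over the 3 clones (2 at an unadjusted p under 0.05), without clone 3 or with DESeq2. All genes of the mitochondrial genome, tRNA genes included, took 0.552%, 0.816% and 0.594% of the counts in MEF+B12 and 0.795%, 0.999% and 1.05% in OSKM+B12. The share was higher in the induced library of each clone, and induced clone 1 lay below uninduced clone 2. For mt-Cytb, cytochrome b, the values were 465, 673 and 499 CPM in MEF+B12 and 701, 898 and 968 CPM in OSKM+B12 (0.66 ± 0.35, adjusted p 0.422). Most other mitochondrial genes share nearly all of their words with copies in the nuclear genome, as mt-Nd3 with 98.1%. The share of counts on pseudogenes was also higher in the induced library of each clone. It was 5.79%, 6.19% and 5.93% in MEF+B12 and 6.55%, 6.62% and 6.33% in OSKM+B12 for clones 1, 2 and 3. Annotated nuclear rRNA genes took 6.32e-05%, 7.1e-05% and 8.56e-05% of the counts in MEF+B12 and 0.0001%, 8.71e-05% and 0.000147% in OSKM+B12, higher in the induced library of each clone. The part of both shares in the result was not tested.

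**Figure D5:**
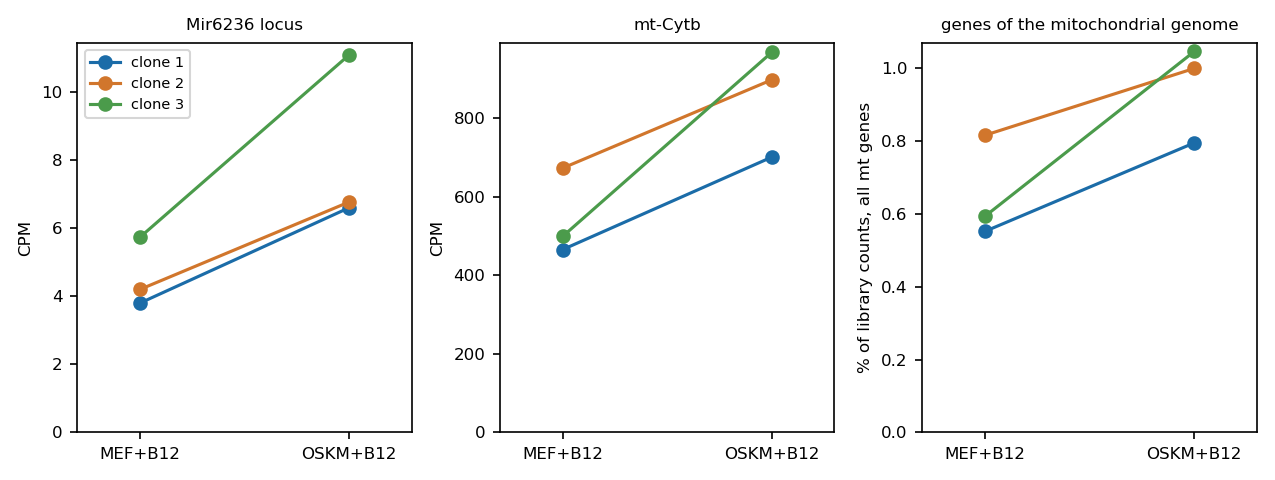
CPM of the Mir6236 locus, CPM of mt-Cytb and the percentage of counts on the mitochondrial genome in MEF+B12 and OSKM+B12, with 1 line a clone and axes from 0. Each line rises, that of clone 3 to the highest induced value in all 3 panels (11.1 CPM, 968 CPM and 1.05%).

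The promoters of the genes that moved were then read for letters that the factors or their partners are known to bind. Promoters were the 250 bases before the annotated start in RefSeq (GRCm38.p6), which were at hand for 12120 of the genes tested, and both strands were searched. A gene was counted if any of its promoters held the motif. The Krüppel-like motif GGGTGTG was found for 14.9% of 342 genes that rose without clone 3, 10.3% of 399 that fell and 8.66% of all 12120. The octamer ATGCAAAT, the site of Oct4 and its relatives, was in 3.51%, 2.01% and 1.53%. The AP-1 motif TGANTCA was in 6.73%, 10.5% and 5.92%, and the E-box CACGTG, bound by Myc, in 8.48%, 10.8% and 9.35%. The CArG box, the site of serum response factor, was found for 1.17%, 1.75% and 1.46%. In the contractile list, taken whole whether or not its genes fell, it was found for 5 of 22 genes (22.7%). Of these Cnn2 alone passed without clone 3. These shares are descriptions, without a test, and a match of letters is not a site.

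Of the 20 genes 12 had such a promoter, and 2 of them held the Krüppel-like motif and 2 the AP-1 motif. Shown here are both promoters with the Krüppel-like motif, that of Krtdap as the epidermal gene with an AP-1 motif, and that of Cnn2 as a contractile gene with a CArG box. Each reads 5′ to 3′ along its gene, up to 250 bases, with the motif in capitals. They lie at chr4:34730207-34730456 on the minus strand (Cfap206), chr9:108080186-108080435 on the plus strand (Mst1), chr7:30787655-30787904 on the plus strand (Krtdap) and chr10:79988350-79988599 on the plus strand (Cnn2).
Cfap206: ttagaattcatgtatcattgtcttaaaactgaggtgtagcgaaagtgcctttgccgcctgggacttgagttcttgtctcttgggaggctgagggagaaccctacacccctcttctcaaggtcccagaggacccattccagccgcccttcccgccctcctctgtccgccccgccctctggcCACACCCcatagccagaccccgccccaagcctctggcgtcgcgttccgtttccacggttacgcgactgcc
Mst1: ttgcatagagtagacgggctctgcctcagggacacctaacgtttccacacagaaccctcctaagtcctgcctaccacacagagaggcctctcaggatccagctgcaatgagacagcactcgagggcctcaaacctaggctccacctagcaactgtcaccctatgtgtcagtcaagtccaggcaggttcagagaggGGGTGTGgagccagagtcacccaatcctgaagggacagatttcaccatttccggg
Krtdap: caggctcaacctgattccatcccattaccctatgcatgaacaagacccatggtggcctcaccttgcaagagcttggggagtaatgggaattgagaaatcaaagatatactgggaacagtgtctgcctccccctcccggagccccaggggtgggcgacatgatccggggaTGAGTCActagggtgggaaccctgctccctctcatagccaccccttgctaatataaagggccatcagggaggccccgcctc
Cnn2: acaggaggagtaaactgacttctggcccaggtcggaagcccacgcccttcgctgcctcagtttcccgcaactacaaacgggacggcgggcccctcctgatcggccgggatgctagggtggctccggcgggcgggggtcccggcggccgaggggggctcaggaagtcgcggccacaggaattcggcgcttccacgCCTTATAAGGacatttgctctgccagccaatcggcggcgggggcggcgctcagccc

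Induction was also measured without B12 in 6 other libraries of the same clones, and the difference between the responses was tested directly. The interaction passed for 0 of 19174 genes with edgeR (273 at an unadjusted p under 0.05) and for 0 with DESeq2 (120). Without B12, 14 genes were higher and 0 lower, and 12 of these 14 were among the 20. The Krt13 log2 fold change was 7.01 ± 0.77 with and 5.72 ± 0.72 without B12, that of Pi16 2.65 ± 0.65 and 2.52 ± 0.65, and that of Acta2 -0.39 ± 0.11 and -0.11 ± 0.11. The smallest unadjusted interaction p-values among the named genes were those of Gm24187 (0.00454) and of Mir6236 and Grm4 (0.0222 for each), all larger with B12, with adjusted p-values of 1.00 to 1.00. No difference of the induction response between media was detectable with 3 clones.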

How the data were processed

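RNA was measured as read pairs per gene in 12 libraries, of which the 6 with B12 were compared. Per the labels and the methods, the authors made strand-specific libraries from poly(A) RNA, aligned the read pairs with STAR 2.5.2 (version from the submitters' processing notes) to mm10 (GRCm38), counted them per Ensembl gene with featureCounts in reverse-stranded mode and added the flow cells of a library. The deposited values are raw counts of 55573 genes, with 0 rows lacking an identifier, and no columns of comparisons were used. GENCODE M21 named 55480 identifiers and left 93 unmatched. Shared sequence is the share of a gene's 31-base words found in transcripts of other genes on the same strand.

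Counts were tested with edgeR 4.0.16 (R 4.3.3, limma 3.58.1), by quasi-likelihood F tests with TMM scaling, a filter by group that kept 19174 genes, and Benjamini-Hochberg adjustment at 0.05. The fit over 12 libraries had clone and group as terms. A clone block was used because each clone gave 1 library a group. Deviations from group means correlated at 0.352 to 0.653 within clones of the B12 libraries and at most at 0.0961 between clones. The response of the clones was compared by an F test in a fit with clone, state and B12 within state. On simulated counts, in which the induction change was the same in all clones, the scripts recovered the fold changes they were given. This does not cover the induction fit where clones respond unequally, as many genes did here. Nor does it cover genes nearly absent from 1 group, as most of those called, because changes were simulated in genes above a minimum mean level. Counting intervals and floors cover counting error only.

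Named genes were the genes past the threshold over the 3 clones, and the 15 largest rises and 15 largest falls past it without clone 3 that were protein coding, with a mean log2 CPM of at least 1 and the same sign in all 3 clones, together with members of the gene lists. A730046J19Rik and Gm24187, which have predicted or clone names, were named after their values were seen. One of the 15 falls is not reported here. Members, lists, motifs and tests were chosen with earlier results of these data known. Alternatives were DESeq2 1.42.0, other scalings and filters, the 6 libraries alone, no block, a GC and length correction and leaving out libraries.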

Additional observations from a re-analysis of the deposited data

Results flagged for a closer look

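The response to induction differed between clones for 413 of 19174 genes (2.15%) with edgeR, in a test of the difference itself that used the libraries of both media. Of the 48 genes named by size or by passing the threshold, 22 were among them. In all 22 the difference with B12 was smallest in clone 3, which is no independent support, because 30 of the named genes were the largest changes without clone 3. Among the rises, the adjusted p of this test was 2.72e-06 for Myoc and for Pi16, 0.00027 for Itgb4 and for Msln, 0.000637 for Plekha6, 0.000653 for Mmp28, 0.000729 for Stmn2 and 0.00109 for Aldh3a1. It was 0.002 for Sema5b, 0.00206 for Aox3, 0.00212 for Aldh1a3 and for Fgd5, 0.0156 for Sox2 and 0.0178 for Col2a1. Among the falls it was 0.0112 for Mmp9, 0.0144 for Slc9b2 and for Sema4d, 0.0178 for Tmem132e, 0.0267 for Acp5, 0.0278 for Brinp2, 0.0322 for Ptprn and 0.0337 for Slc5a7. Pou5f1 did not pass (0.352), nor did Slurp1 (0.621) or Krt13 (0.638), whose clone 3 values were also the lowest of the induced libraries. Of 739 list genes tested 65 passed (against 2.15% of all genes), 62 of them with the smallest difference in clone 3. The lists were chosen with earlier results of these data known. The cause of the weaker response was not tested.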

How the results depend on the processing

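The count of 20 genes over the 3 clones depended on the filter, the tool and the clones. It was 416 with DESeq2, 646 with no filter, 1 (Sox2) among genes with at least 10 counts in every library, and 1 to 1004 when each clone was left out in turn. With the 6 libraries alone and the clone block it was 6, of which 3 were among the 20, and with no block it was 0 (927 at an unadjusted p under 0.05). DESeq2 without clone 3, added after seeing the data, gave 1255. DESeq2 size factors, library totals, the GC and length correction with the block and leaving out the induced clone 1 library without B12 gave 19 to 24. The last turned 1 gene into a fall, Col18a1 (-0.27, adjusted p 0.0248). Clones 2 and 3, which share a title year, gave 2 genes, and clone 1, alone in its year, could not be tested. The clone response count of 413 was 1257 with no filter, 0 to 724 without each clone, 838 without the induced clone 1 library without B12 and 22 with DESeq2 without clone 3. The interaction stayed at 0 under each alternative run. Of 1991 values of 156 genes under the alternatives 11 reversed, none past the threshold. These were Cd320 at -0.0011 with no block, -0.021 with the GC and length correction, and -0.0091 with DESeq2 without clone 3, and between -0.059 and 0.079 when each clone was left out. Mtr was at 0.012 with library totals, 0.0097 with DESeq2 without clone 3 and between -0.13 and 0.039 without each clone. Without each clone Nanog ranged from -0.038 to 0.43 and Setd2 from -0.038 to 0.15. Genes at a few counts in 1 state, as most of the 20, rest on few reads in MEF+B12, and 3 clones limit what can be detected.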

Other observations

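Several of the largest falls in clones 1 and 2 encode proteins of osteoclasts, the bone-resorbing cells that form from macrophages. A list of 14 such genes was put together after these values were seen, so its counts describe the data without adding support. Of its 13 tested genes 12 had a negative difference, with a median log2 fold change of -0.83 over the 3 clones. The medians were -1.60, -1.10 and -0.19 in clones 1, 2 and 3. Without clone 3, 8 fell and 1 rose (against 2.76% and 2.46% of all genes). Dcstamp, which is needed for osteoclast fusion, had 2.15, 3.13 and 4.24 CPM in MEF+B12 and 0.206, 0.772 and 2.78 CPM in OSKM+B12. Atp6v0d2, a proton pump subunit, had 9.495, 12.8 and 12.3 CPM in MEF+B12 and 1.79, 4.36 and 9.37 CPM in OSKM+B12. Ctsk, the collagen-degrading cathepsin K, had 318, 668 and 498 CPM in MEF+B12 and 229, 546 and 469.7 CPM in OSKM+B12. Each was lower in the induced library of every clone, and the folds without clone 3 were 5.85, 3.75 and 1.31. Nfatc1, the transcription factor of these cells, fell 1.57-fold and Tnfrsf11a, the receptor RANK, fell 1.69-fold without clone 3, while Itgb3, an integrin subunit, rose 1.48-fold. Over the 3 clones 0 of the 13 passed with edgeR. At an unadjusted p under 0.05 there were 12, against 2854 of all 19174 genes. With DESeq2 4 were lower and 1 higher (against 1.18% and 0.991% of all genes). The summed macrophage marker level, 3482, 2834 and 2096 CPM in MEF+B12 and 2842, 2665 and 2194 CPM in OSKM+B12 for clones 1, 2 and 3, was lower in the induced library in clones 1 and 2 and higher in clone 3, and its part in these falls was not tested.

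Loci that moved with Mir6236 in the B12 libraries were also picked after their values were seen. Of these 6 loci, Mir6236 and Gm24187 included, 3 had an unadjusted interaction p under 0.05 (edgeR), against 273 of all 19174 genes. After adjustment 0 passed. Their median log2 fold change was 0.75 with B12 and -0.04 without it, where the fit holds the induced clone 1 library that stands apart. Lars2, a mitochondrial leucyl-tRNA synthetase, had 115, 105 and 156 CPM in MEF+B12 and 179.6, 191 and 259.8 CPM in OSKM+B12. The differences of 0.64, 0.86 and 0.74 in clones 1, 2 and 3 were alike, and the groups did not overlap. Its log2 fold change of 0.74 ± 0.27 did not pass over the 12 libraries (adjusted p 0.237), but it passed with the 6 B12 libraries alone (0.0254) and without the induced library of clone 1 grown without B12 (0.000709). The predicted loci Gm23935 and Gm24270, whose words all occur in other genes, and Gm15564 had log2 fold changes of 0.75 ± 0.35, 0.75 ± 0.36 and 0.72 ± 0.28.

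Among the globin genes, also listed after their values were seen, Hbb-y was the single one of 7 with enough counts to be tested.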
